A study of Mus musculus with 17 samples.

Results

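The dorsal lineage of the postnatal subventricular zone (SVZ) was compared between 4 and 7 days after its progenitors had been labelled. Of the 34 samples of the series, which were hybridised in pairs on 17 arrays of 2 colours, the comparison used the 6 dorsal samples of these times, 3 per time, chosen by their labelled wall and time. Both groups came from CD1 mice whose dorsal SVZ wall had been electroporated in vivo at postnatal day 1, and consisted of GFP-positive cells isolated by fluorescence-activated cell sorting at 4 days or at 7 days. The 6 lateral samples of the same arrays came from mice of the same strain, electroporated at the same stage in the lateral wall and sorted at the same times, and served to show where the dorsal step differed. The dorsal sample of each array carried Cy3 and the lateral one Cy5, with no dye swap. Messenger RNA was amplified by a global PCR service (SuperAmp) before labelling. The labels give polyA RNA for 1 channel and total RNA for the other, which cannot be told apart from wall and dye. The labels name the targeted wall but neither the plasmid nor its promoter, and how many animals went into a sample is not stated in them. Because the RNA came from bulk sorted cells, fewer cells of a type and less RNA per cell cannot be told apart.

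The SVZ lines the lateral ventricle and goes on making neurons after birth. Its radial glia-like stem cells give rise to transit amplifying progenitors, these to neuroblasts, and the neuroblasts then travel in chains, through the rostral migratory stream, into the olfactory bulb and mature there into interneurons. The dorsal wall descends from the pallium and, beside interneurons, is known for glutamatergic neurons, astrocytes and oligodendrocytes, whereas the lateral wall descends from the ganglionic eminences.

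Levels are normalized log2 intensities of Cy3, and a change is the mean at 7 days minus the mean at 4 days, so that 1 unit is a doubling. Changes carry the standard error of limma's fit of all 17 arrays, and means carry the SD of 3 arrays. Replicates 1, 2 and 3 of both times lay on slides 1, 2 and 3 respectively, so each slide held 1 array of each time. The labels call the replicates biological. In the dorsal channel 57.0 to 68.5% of probes exceeded background clearly at 4 days, and 60.8 to 72.2% did so at 7 days. The median net Cy3 signal was 55.2, 37.6 and 103 at 4 days and 105, 112 and 166 at 7 days. Signal thus moved with the groups before normalization, and its part in the results was not tested. Across genes, which are not independent replicates, arrays of 1 time correlated at 0.822 to 0.876 (4 days) and 0.884 to 0.916 (7 days), and arrays of different times at 0.793 to 0.929. Markers of neuroblasts were well above background on all 6 dorsal arrays. Dcx, a microtubule-associated protein of migrating neuroblasts, stood at 14.48, 16.05 and 15.60 at 4 days and at 15.35, 15.66 and 15.47 at 7 days, and Cd24a, Tubb3, Stmn2, Igfbpl1 and Sox11 had group means between 14.99 and 15.81.

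Between 4 and 7 days 12 genes rose and none fell in the dorsal samples. The 12 comprised the globins Hba-a1 and Hbb-bt, the growth factor gene Igf2, genes of the extracellular matrix and of secreted signalling (Fmod, Aebp1, Frzb, Sulf2), genes known from macrophages (Clec10a, Mpeg1, Capg), and the enzymes Galk1 and Sult1a1. Of 21802 genes tested, these were 0.055% called higher and 0% called lower at an adjusted p under 0.05 (limma, Benjamini-Hochberg over all genes). Without adjustment, 1111 genes had p under 0.05, 807 higher (3.7%) and 304 lower (1.39%). In each of the 12, the 3 arrays of 7 days lay above the 3 of 4 days and the difference was positive on each slide. Groups that did not overlap were common on these arrays: of 21683 genes measured on all 6, 1400 (6.46%) lay wholly higher at 7 days and 1805 (8.32%) wholly lower. The median change of all genes was -0.088.

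The number called depended on single arrays and on the fit. It was 4 without replicate 1, 4 without replicate 2 and 7 without replicate 3 of 4 days, and 7, 3 and 25 without replicates 1, 2 and 3 of 7 days. Hba-a1, Hbb-bt and Igf2 were called in each of these 6 fits. With the slide as a fixed block beside the time points of all 17 arrays, 5 were called, all among the 12: Hba-a1, Hbb-bt, Igf2, Aebp1 and Galk1. With the slide as a block among the 6 arrays alone, which leaves 2 residual degrees of freedom, none was called, the lowest adjusted p was 0.17, and 1710 genes had an unadjusted p under 0.05. A fit of the 6 arrays with no block, which uses the spread at 4 and 7 days only, called 82 genes higher (0.376%) and 1 lower (0.00459%), and 6 of the 12 were among them.

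**Figure D1:**
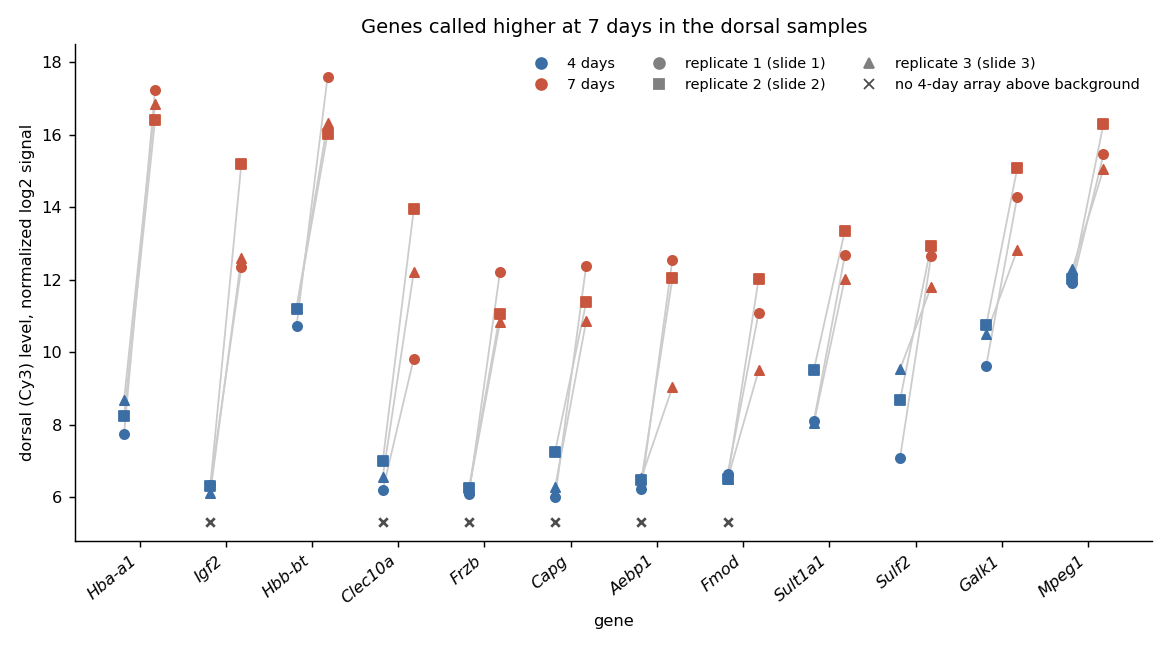
Dorsal level (normalized log2 Cy3 signal, vertical axis) of the 12 genes called higher at 7 days (horizontal axis), by array: blue for 4 days, orange for 7 days, symbols for replicates, grey lines joining arrays of 1 slide, crosses marking genes with no 4-day array above background. In each gene the 7-day points lie above the 4-day points, from Hba-a1 (mean change 8.61) to Mpeg1 (3.53).

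Hba-a1 had the largest dorsal change of the 12 called genes, and the globin Hbb-bt was called as well. Adult haemoglobin pairs alpha chains, encoded by the neighbouring copies Hba-a1 and Hba-a2, with beta chains, encoded by Hbb-bs and Hbb-bt, and red cell precursors are their usual source. The 120 bases before the start of the globin genes with large increases are shown because these genes moved together and because the alpha copies cannot be separated on this array (RefSeq, GRCm38.p6). Capitals mark matches on either strand to the letters CACCC, to the box CCAAT and to the box TATAA, and the letters GATAA were searched as well. Matches of different motifs did not overlap in these windows. The regions are chr11:32283552-32283671 (plus strand) for Hba-a1, chr11:32296372-32296491 (plus strand) for Hba-a2 and chr7:103813924-103814043 (minus strand) for Hbb-bt.
Hba-a1: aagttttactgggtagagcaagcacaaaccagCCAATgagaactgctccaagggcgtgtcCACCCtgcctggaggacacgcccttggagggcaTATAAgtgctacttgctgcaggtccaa
Hba-a2: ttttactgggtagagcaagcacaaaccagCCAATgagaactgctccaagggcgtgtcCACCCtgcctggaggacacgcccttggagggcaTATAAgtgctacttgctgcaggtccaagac
Hbb-bt: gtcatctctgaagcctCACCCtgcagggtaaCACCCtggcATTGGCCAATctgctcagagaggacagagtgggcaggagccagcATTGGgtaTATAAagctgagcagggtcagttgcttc
Shifted by 3 bases, the windows of Hba-a1 and Hba-a2 were identical at 117 of 117 bases, whereas Hba-a1 and Hbb-bt shared 39 of 119 (32.8%). CACCC, the box CCAAT and the box TATAA occurred in each of the 3 windows, whereas GATAA was not in any of them. Among 32851 windows of the same length, CACCC occurred in 31.7%, CCAAT in 21.3%, TATAA in 11.8% and GATAA in 10.5%, and the first 3 occurred together in 0.688%. A match is a description of letters and says nothing of binding.

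Hba-a1 stood at 7.75, 8.24 and 8.68 in the 4-day dorsal samples and at 17.24, 16.41 and 16.86 in the 7-day ones. The groups lay far apart, and the 3 within-slide differences were 9.49, 8.18 and 8.17. The change was 8.61 ± 0.58, a 392-fold increase (adjusted p = 0.000216, limma). The probe lists accessions of both Hba-a1 and Hba-a2, so which copy was measured is uncertain. A probe named Hba-a2 stood at 8.30, 8.68 and 8.50 at 4 days and at 16.52, 15.58 and 15.89 at 7 days, a change of 7.50 ± 1.37 that missed the threshold (adjusted p = 0.108, limma) and was called among the 6 arrays alone (adjusted p = 0.00303). Hbb-bt stood at 10.71, 11.20 and 11.21 at 4 days and at 17.58, 16.02 and 16.32 at 7 days. Its groups did not overlap either, and it rose by 5.60 ± 0.55, or 48.5-fold (adjusted p = 0.00538, limma). Its 4 probes changed by 5.60 to 9.58 and list accessions of several beta-globin genes.

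The globin calls rested on which spots entered the fit. Spots that the scanner software marked as outliers were set to missing, which removed the 4 arrays of 14 days for Hba-a1 (13 of 17 arrays measured) and 3 arrays for Hbb-bt (14 of 17), while the 6 arrays of 4 and 7 days were measured. With such spots kept, a setting chosen after seeing the data, the changes stayed the same but the pooled spread grew. The adjusted p was then 0.156 for Hba-a1 and 0.332 for Hbb-bt (limma). Among the 6 arrays of 4 and 7 days alone, where no spot was missing for these genes, it was 0.00303 and 0.0281.

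No other erythroid gene was called. Of 8 genes in the erythroid list 6 were tested, 2 rose (Hba-a1 and Hbb-bt) and none fell, with a median change of 1.08 (1.69 without replicate 2 and 0.65 without replicate 3 of 7 days). Alas2, the erythroid enzyme of haem synthesis, stood at 6.75, 6.57 and 7.08 at 4 days and at 9.73, 6.70 and 10.97 at 7 days. Replicate 2 of 7 days overlapped with the 4-day samples, and the gene was not called (2.34 ± 1.56). The changes were -0.89 ± 1.19 for the probe named Hbb-bs, -0.27 ± 0.48 for Hemgn, an erythroid nuclear protein, and -0.17 ± 0.44 for Slc4a1, the anion exchanger of red cells. The probe named Hbb-bs was above background on 1 array of each time. At 8 hours, where dorsal Hba-a1 averaged 19.02, the Hbb-bs probe averaged 6.14 and Hemgn 6.69, so both were low also there. Slc4a1 and Alas2 were not low at 8 hours, with dorsal means of 10 and 13.07. The mean level of the list was 7.86 to 8.79 in the 4-day samples and 9.98 to 11.44 in the 7-day ones.

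Igf2, a growth factor known from the meninges and choroid plexus of the brain, rose from 6.32, 6.31 and 6.11 at 4 days to 12.34, 15.19 and 12.61 at 7 days. No 4-day array was well above background, so the increase was at least 140-fold (7.13 ± 0.88, adjusted p = 0.00772, limma). Igf2 kept its call with outlier spots kept (adjusted p = 0.0231) and with the slide as a block in the fit of all arrays (adjusted p = 0.0401). It belongs to the list of meningeal and fibroblast genes, whose 10 members had the highest list median, 3.38. In that list 1 of 10 members rose and none fell, and 8 of 10 had 7-day arrays wholly above the 4-day arrays. Since 4 of the 10 were above background on no 4-day array and passed the filter through the 7-day samples alone, this count is a description and not an excess over the 6.46% of all genes.

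The other members of that list with the smallest p encode matrix proteins and a transporter. Dcn, the matrix proteoglycan decorin, stood at 6.24, 6.23 and 6.37 at 4 days and at 11.51, 12.65 and 9.33 at 7 days. It was above background on no 4-day array and was at least 29.2-fold higher, short of the threshold (adjusted p = 0.0748, limma). Col3a1, a fibrillar collagen, stood at 7.76, 7.93 and 7.32 and then at 12.93, 12.88 and 10.82 (4.53 ± 0.86, adjusted p = 0.108, limma). Neither was called, although their groups did not overlap. Slc6a13, a GABA transporter of meningeal cells, stood at 7.16, 7.41 and 7.03 and then at 12.29, 15.59 and 10.89 (5.72 ± 1.57). The collagen gene Col1a1 went the other way, with means of 10.80 ± 1.13 (SD) and 9.92 ± 0.81, which was not called. The mean level of the list was 7.27 to 7.58 at 4 days and 9.60 to 11.77 at 7 days, and replicate 3 of 7 days was the lowest of the later samples in Dcn, Col3a1 and Slc6a13.

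The 4 called genes of matrix and secreted signalling were highest in replicate 1 or 2 of 7 days. Frzb, a secreted Wnt antagonist, stood at 6.08, 6.25 and 6.18 and then at 12.22, 11.05 and 10.82, at least 35.4-fold higher (5.19 ± 0.68, adjusted p = 0.0278, limma). Aebp1, a secreted collagen-binding protein, stood at 6.23, 6.47 and 6.54 and then at 12.55, 12.03 and 9.02, at least 27.7-fold higher (4.79 ± 0.75, adjusted p = 0.0315). Fmod, the collagen-binding proteoglycan fibromodulin, stood at 6.63, 6.50 and 6.50 and then at 11.08, 12.02 and 9.50, at least 20.1-fold higher (4.33 ± 0.64, adjusted p = 0.0278). None of these 3 was well above background on any 4-day array. Sulf2, an extracellular sulfatase that edits heparan sulfate, was already above background on 2 of the 4-day arrays, at 7.07, 8.67 and 9.53, and rose 16.3-fold to 12.64, 12.93 and 11.79 (4.03 ± 0.61, adjusted p = 0.0278). Replicate 3 showed the smallest within-slide difference in each of the 4 genes. With outlier spots kept, Fmod and Sulf2 were called (adjusted p = 0.0453 each, limma), and Frzb (0.261) and Aebp1 (0.0529) were not.

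Of the called genes 3 are known from macrophages, a grouping made after the calls were seen. Clec10a, a lectin receptor of macrophages, stood at 6.19, 6.98 and 6.55 at 4 days, above background on no array, and at 9.82, 13.94 and 12.21 at 7 days. It was at least 42.6-fold higher (5.41 ± 0.80, adjusted p = 0.0278, limma). Mpeg1, the pore-forming perforin-2 of macrophages, was present at both times, at 11.90, 12.03 and 12.30 and then at 15.46, 16.30 and 15.05, 11.5-fold higher (3.53 ± 0.54, adjusted p = 0.0349). Capg, an actin-capping protein abundant in macrophages, stood at 5.99, 7.26 and 6.28 and then at 12.38, 11.37 and 10.86, at least 31.2-fold higher (5.03 ± 0.75, adjusted p = 0.0278). The groups did not overlap in any of these genes. Clec10a and Mpeg1 lost their call with outlier spots kept (adjusted p = 0.532 and 0.877), whereas Capg kept it (0.0453).

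In the list of microglial and macrophage genes, none of 14 members rose or fell by the test. Each of the 14 had a positive change, however, from 1.21 to 4.42 with a median of 2.39. In 13 of them the 7-day arrays lay wholly above the 4-day arrays (6.46% of all genes did). The smallest p belonged to Cx3cr1, the fractalkine receptor of microglia, at 7.48, 7.69 and 9.88 and then at 12.98, 12.76 and 12.57 (4.42 ± 1.14, adjusted p = 0.31, limma). Csf1r, the receptor on which microglial survival depends, stood at 8.23, 11.90 and 12.19 and then at 14.32, 14.68 and 14.08. C1qb, a complement subunit, stood at 13.68, 9.48 and 12.33 and then at 15.93, 15.55 and 15.18. The 7-day samples lay close together in these genes, and the 4-day samples were spread over more than 2 units. The mean level of the list was 11.74 to 12.09 at 4 days and 14.21 to 14.88 at 7 days. Of the defining markers, Csf1r was well above background on all 6 arrays and Cx3cr1 on 2 of 3 arrays at 4 days and all 3 at 7 days. The part of such cells in the other results was not tested.

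Among the genes called only within the 6 arrays, several more are known from macrophages, and they are described after their values were seen. Pf4, a chemokine of platelets and border-associated macrophages, stood at 6.26, 6.17 and 5.83 and then at 13.81, 15.77 and 14.92. It was at least 400-fold higher and close to the threshold in the fit of all arrays (8.75 ± 1.46, adjusted p = 0.0511, limma; 0.00725 with 6 arrays). F13a1, a coagulation factor subunit, stood at 5.74, 6.20 and 5.99, above background on no array, and then at 12.60, 15.43 and 13.85, at least 222-fold higher (adjusted p = 0.228; 0.0281 with 6 arrays). Igf1, a growth factor, stood at 8.50, 8.25 and 7.68 and then at 14.02, 14.71 and 14.35 (adjusted p = 0.108; 0.00695 with 6 arrays). Gpnmb, a glycoprotein of activated macrophages, stood at 7.41, 6.17 and 6.15 and then at 11.95, 13.33 and 12.69 (adjusted p = 0.106; 0.0281 with 6 arrays). Of the 83 genes called within the 6 arrays, 28 were well above background on no 4-day array. The 1 lower gene was Pam, an enzyme that amidates peptides, at 9.75, 9.38 and 9.42 and then at 6.66, 6.65 and 6.80 (-2.81, adjusted p = 0.0311 with 6 arrays; 0.927 in the fit of all arrays).

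The enzymes Galk1 and Sult1a1 were measured above background at both times. Galk1, galactokinase, stood at 9.63, 10.74 and 10.49 at 4 days and at 14.29, 15.07 and 12.82 at 7 days, a 13.7-fold rise (3.77 ± 0.54, adjusted p = 0.0278, limma). Sult1a1, a sulfotransferase for phenols, stood at 8.09, 9.50 and 8.04 and then at 12.67, 13.34 and 12.03, a 17.6-fold rise (4.14 ± 0.66, adjusted p = 0.0451). The groups did not overlap in either gene. Galk1 kept its call with the slide as a block in the fit of all arrays (adjusted p = 0.0419) and with outlier spots kept (0.0453), whereas Sult1a1 did not keep it with outlier spots kept (0.261).

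**Figure D2:**
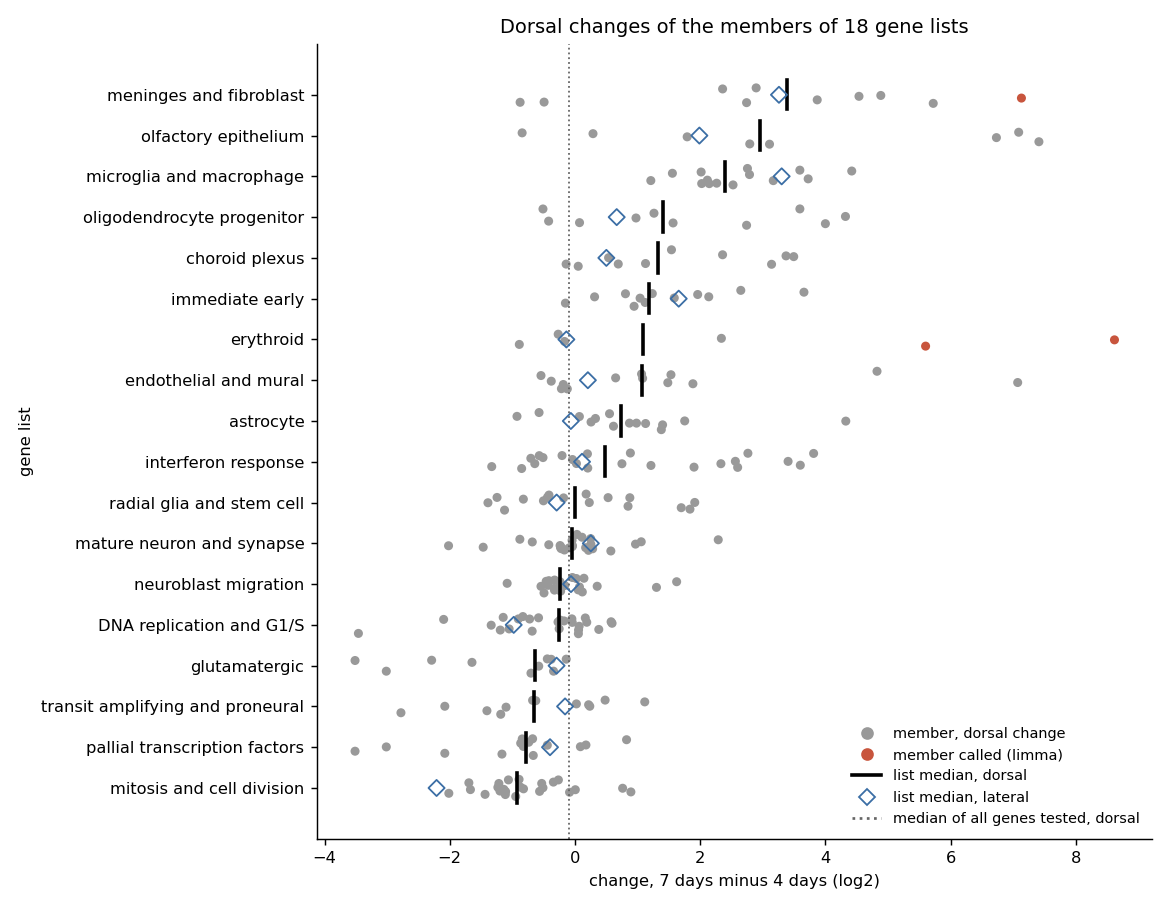
Dorsal change from 4 to 7 days (log2, horizontal axis) of the tested members of 18 gene lists (vertical axis), with called members in orange, black bars for the dorsal list medians, open blue diamonds for the lateral list medians and a dotted line at the median of all genes. Lists of other cell types lie at the top (meninges and fibroblast, median 3.38) and mitosis at the bottom (-0.92), and 3 of the members drawn were called.

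The lists of neuroblast, mature neuron and interneuron genes had small median changes, and none of their members passed the test. The 22 neuroblast migration genes had a median change of -0.23 (0.020 without replicate 2 of 7 days), and the 25 tested genes of mature neurons and synapses one of -0.046. Tubb3, a neuronal tubulin, had a change of -0.33 ± 0.65 and Stmn2, a regulator of microtubules in growing neurites, one of 0.05 ± 0.80. Among 17 tested genes of GABAergic and olfactory interneurons the median was 0.014, but single members spread widely. Npy, a neuropeptide of interneurons, stood at 6.76, 8.45 and 9.96 at 4 days and at 14.98, 13.39 and 14.57 at 7 days (5.92 ± 1.31, adjusted p = 0.21, limma), with no overlap. Sst, another such neuropeptide, stood at 13.16, 12.50 and 12.01 and then at 11.64, 6.71 and 6.54, where replicate 1 of 7 days remained near the 4-day samples (-4.26 ± 2.10). Neither was called.

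Genes of dividing cells were lower at 7 days in most cases, without a call. Of all 21802 genes tested, 12223 had a negative change. Of 24 mitosis genes, 21 had a negative change, 5 had groups that did not overlap in that direction (8.32% of all genes did), none rose or fell by the test, and the median was -0.92. Cdc20, an activator of the anaphase-promoting complex, stood at 13.81, 13.16 and 13.02 and then at 11.55, 12.16 and 11.27 (-1.67 ± 0.71). Top2a, a topoisomerase of dividing cells, stood at 8.66, 8.91 and 8.89 and then at 7.00, 7.48 and 8.33 (-1.22 ± 0.50). Both had groups that did not overlap. The proliferation marker Mki67, in contrast, stood at 12.18, 10.33 and 11.81 and then at 11.44, 11.27 and 11.62, with overlapping groups and a change of 0.00 ± 1.08. The list median was -1.48, -0.45 and -0.54 within slides 1, 2 and 3, and -0.54 without replicate 1 of 4 days.

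Of 25 genes of DNA replication and the G1/S step, 17 had a negative change, with a median of -0.25 and no call. The median was -0.62 without replicate 2 of 4 days, -0.14 without replicate 1 and -0.58 without replicate 3 of 7 days. Within slides 1, 2 and 3 it was -0.89, 0.15 and -0.67, so its sign differed on slide 2. Pole, the catalytic subunit of DNA polymerase epsilon, stood at 12.15, 12.15 and 10.12 and then at 7.66, 7.51 and 8.88 (-3.46 ± 0.91, adjusted p = 0.338, limma), with no overlap. Among 13 tested D-type cyclins and inhibitors of cyclin-dependent kinases, 6 had a positive and 7 a negative change. Cdkn1c, an inhibitor known from cells that leave the cycle, stood at 9.47, 9.03 and 9.88 and then at 11.95, 12.50 and 11.46 (2.51 ± 0.66). Ccnd1, cyclin D1, stood at 10.39, 8.45 and 10.56 and then at 12.16, 12.22 and 12.14 (2.37 ± 0.74). Ccnd2, cyclin D2, stood at 15.26, 15.88 and 15.37 and then at 14.60, 13.89 and 14.73 (-1.10 ± 0.80). None of these 3 overlapped between groups and none was called.

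Transcription factors that mark the dorsal wall's glutamatergic output were lower at 7 days, again without a call. Each of the 10 tested genes of the glutamatergic list had a negative change, with a median of -0.64 against -0.29 in the lateral samples, and none fell by the test. The median was -1.19 without replicate 3 of 4 days and between -0.77 and -0.53 when any other array of the 6 was left out. Single genes were most spread. Tbr1, a factor of glutamatergic neurons, stood at 14.92, 10.98 and 11.55 at 4 days and at 6.71, 9.76 and 10.43 at 7 days (-3.51 ± 1.32). Neurod6, a factor of postmitotic pallial neurons, stood at 12.47, 8.67 and 7.82 and then at 5.87, 7.10 and 6.95 (-3.01 ± 1.10). Eomes, the factor of intermediate progenitors also called Tbr2, was not among these 10 and belongs to the lists of pallial and of transit amplifying genes. It stood at 11.86, 7.98 and 7.16 and then at 6.29, 6.53 and 7.95, with overlap. In each of the 3, replicate 1 of 4 days was the highest sample, and the within-slide differences of Tbr1 were -8.21, -1.22 and -1.11. The median of the glutamatergic list was -2.09, -0.87 and -0.56 within slides 1, 2 and 3. The median was -0.65 for 12 tested transit amplifying and proneural genes (-0.35 without replicate 1 of 4 days), -0.78 for 14 pallial factors (-0.43 without replicate 1 of 4 days) and -0.0025 for 16 genes of radial glia and stem cells.

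Genes of oligodendrocyte progenitors and astrocytes were higher at 7 days in most cases, those of myelinating oligodendrocytes were not, and none was called. Of 10 genes of oligodendrocyte progenitors, 8 had a positive change, with a median of 1.41. Sox10, a factor of the oligodendrocyte lineage, stood at 8.09, 8.74 and 11.37 and then at 13.45, 13.88 and 12.86 (4.00 ± 1.24). Gpr17, a receptor of committed progenitors, stood at 6.43, 6.64 and 7.18 and then at 9.62, 12.43 and 11.16 (4.32 ± 1.36). Pdgfra, the growth factor receptor that defines these progenitors, stood at 7.14, 6.45 and 9.87 and then at 11.11, 10.08 and 10.49 (2.74 ± 1.64). In these 3 genes the groups did not overlap, and replicate 3 was the highest of the 4-day samples. Of the 10 members, 4 lay wholly higher and 2 wholly lower at 7 days, against 6.46% and 8.32% of all genes. Of 14 astrocyte genes, 12 had a positive change, with a median of 0.74, which was 0.48 without replicate 2 of 4 days and 0.39 without replicate 2 of 7 days. Within slides 1, 2 and 3 the astrocyte median was -0.33, 0.84 and 0.33, so its sign differed on slide 1. Of the 14, 2 lay wholly higher at 7 days and 1 wholly lower, against the same 6.46% and 8.32% of all genes. Sparcl1, a secreted matrix protein of astrocytes, stood at 12.47, 13.26 and 11.93 and then at 14.04, 14.19 and 13.62 (1.40 ± 0.54), and Gjb6, a gap junction subunit of astrocytes and meninges, at 6.99, 6.29 and 6.11 and then at 10.34, 13.39 and 8.62 (4.32 ± 1.23). Of 11 tested genes of myelinating oligodendrocytes, 5 had a positive and 6 a negative change, with a median of -0.29 that turned to 0.14 without replicate 1 and to 0.13 without replicate 2 of 4 days. Among them Cldn11, a claudin of myelin and of the arachnoid, was above background on no 4-day array and stood at 10.99, 12.78 and 8.73 at 7 days, whereas Mog, a glycoprotein of the myelin surface, averaged 7.13 ± 0.60 (SD) and then 6.80 ± 0.44, with overlap, and is named after its values were seen. As in Dcn and Fmod, replicate 2 was the highest and replicate 3 the lowest of the 7-day samples in Gjb6 and Cldn11.

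Immediate early genes, which cells induce within minutes of a stimulus, were higher at 7 days in 11 of 12 cases, with a median of 1.18 and none called. Fos, a subunit of the AP-1 factor, stood at 12.96, 12.65 and 13.76 and then at 14.87, 15.18 and 15.73 (2.14 ± 0.53, adjusted p = 0.269, limma). Fosb stood at 12.72, 9.49 and 9.86 and then at 14.16, 13.69 and 15.19 (3.66 ± 1.15). Their groups did not overlap. Genes of this kind also respond to tissue dissociation and sorting, and the part of handling was not tested. Of 22 interferon response genes, 14 had a positive change, with a median of 0.48 and no call. That median was 0.12, 1.43 and 0.14 without replicates 1, 2 and 3 of 4 days and 0.74 without replicate 2 of 7 days, so single libraries set its size. Bst2, the virus-tethering protein tetherin, stood at 10.22, 10.20 and 10.44 and then at 12.65, 14.75 and 13.67 (3.40 ± 0.77, adjusted p = 0.212, limma).

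Some markers of cells from outside the lineage were also higher at 7 days, and others were not. Enzymes known from the olfactory epithelium were the clearest case. Cyp2g1, a cytochrome P450 of that tissue, stood at 6.33, 6.52 and 6.33 at 4 days, above background on no array, and at 14.08, 14.11 and 13.22 at 7 days, at least 170-fold higher (7.41 ± 1.99). It was not called in the fit of all arrays (adjusted p = 0.356, limma), where the 14-day samples spread from 6.16 to 17.02, and was called with the 6 arrays alone (adjusted p = 0.00303). Cyp2a5, another P450 of nasal tissue whose probe also lists its close paralog Cyp2a4, stood at 7.22, 7.31 and 6.88 and then at 14.62, 14.14 and 13.91 (7.08 ± 1.83). Cbr2, a carbonyl reductase, stood at 8.83, 6.64 and 6.72 and then at 13.71, 14.71 and 13.95 (6.73 ± 1.63). In contrast Omp, the defining marker of mature olfactory sensory neurons, stood at 10.75, 11.43 and 10.81 and then at 10.42, 9.66 and 10.38 (-0.84 ± 0.58). Of the other defining markers, Cnga2 changed by 0.29 ± 0.75. Gng13 changed by 2.79 ± 1.37, with an SD of 3.19 among the 7-day arrays, and neither was called. Of 8 tested genes of this list 7 had a positive change, with a median of 2.95, and their mean level was 7.66 to 8.22 at 4 days and 11.21 to 11.95 at 7 days.

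Endothelial and mural genes had a median change of 1.06 over 13 tested members (0.64 without replicate 1 of 7 days), none of them called. Vtn, a glycoprotein made by pericytes, stood at 6.64, 6.42 and 6.51, above background on no array, and then at 12.82, 15.04 and 12.93, at least 134-fold higher (adjusted p = 0.188, limma; 0.0281 with 6 arrays). Cldn5, the tight junction protein of brain endothelium, stood at 7.63, 7.97 and 7.34 and then at 13.70, 13.84 and 9.87 (4.82 ± 1.87). The endothelial markers Pecam1 and Flt1, however, were low and overlapped between groups, with means between 7.04 and 7.35. Of 10 choroid plexus genes, 9 had a positive change and 2 lay wholly higher at 7 days (6.46% of all genes did), with none called. Ttr, the thyroid hormone carrier of that epithelium, was high in a single sample, at 6.31, 6.64 and 6.57 and then at 6.67, 16.33 and 6.63. The median change of the 10 choroid plexus genes was 0.25, 4.58 and 0.14 within slides 1, 2 and 3, and the median over all arrays was 0.0081 without replicate 2 of 7 days. Of 9 tested neutrophil genes, 4 had a positive and 5 a negative change, with a median of -0.087. Among them Mmp9, a matrix metalloproteinase, stood at 7.16, 7.56 and 7.26 and then at 10.98, 11.27 and 10.54 (3.60 ± 0.65, adjusted p = 0.0898, limma; 0.0281 with 6 arrays), and S100a8, a calcium-binding protein of neutrophils that was above background on no 4-day array, stood at 8.23, 10.40 and 6.04 at 7 days. The part of such cells or of their RNA in the dorsal changes was not tested. Dcx, Tubb3, Stmn2, Mki67, Ccnd2, Hemgn, Slc4a1, Col1a1, Omp, Cnga2, Gng13, Pecam1 and Flt1 are given as defining genes of their lists and were chosen after their values were seen. Of the 40 lists, 2 had a called member (erythroid, and meninges and fibroblast), 3 genes in all.

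Most of the called genes had a change of the same sign in the lateral samples. The lateral change was 5.26 ± 2.21 for Igf2, 4.43 ± 0.72 for Frzb, 3.60 ± 1.13 for Aebp1, 3.45 ± 1.01 for Sult1a1, 3.40 ± 1.09 for Fmod, 3.08 ± 0.98 for Clec10a, 2.68 ± 1.01 for Mpeg1, 2.64 ± 0.97 for Sulf2 and 1.61 ± 1.37 for Capg. The lateral change itself was called in 6 genes (0.0275% of those tested). Of the dorsal calls, the 3 others were the globins and Galk1. Lateral Hba-a1 stood at 7.43, 7.29 and 15.91 at 4 days and at 10.34, 9.76 and 10.05 at 7 days (-0.16 ± 2.20), so that 1 lateral sample of 4 days, replicate 3, stood far above the other lateral samples and below each dorsal sample of 7 days. Lateral Hbb-bt stood at 10.88, 11.45 and 15.01 and then at 12.27, 11.24 and 11.51, with the same sample high. Lateral Galk1 stood at 12.95, 12.34 and 12.36 and then at 11.28, 12.56 and 12.78 (-0.34 ± 0.60). The dorsal 4-day samples of Galk1 lay below each of these lateral samples, and the dorsal 7-day samples lay above them except for replicate 3, which lay within their range.

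**Figure D3:**
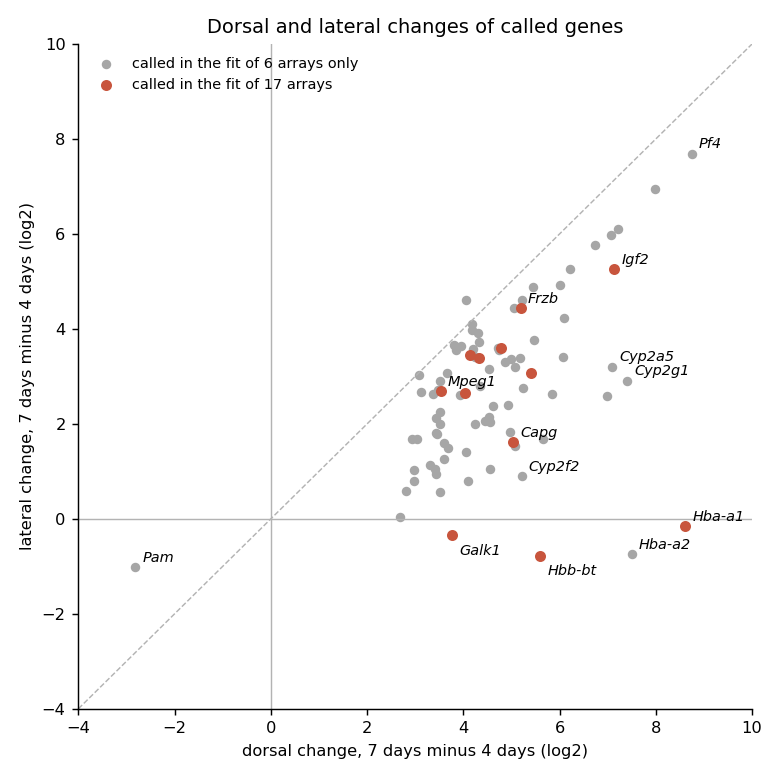
Dorsal change (horizontal axis) against lateral change (vertical axis) from 4 to 7 days, both log2, for genes called in the fit of 17 arrays (orange) or of the 6 arrays only (grey), with the dashed line marking equal change. Most called genes lie above 0 on both axes, and Hba-a1, Hba-a2, Hbb-bt and Galk1 lie just below 0 on the lateral axis.

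The test of the difference itself called no gene. Of 21802 genes 0% had a dorsal change that differed from the lateral one at an adjusted p under 0.05 (limma, within-array log2 ratio). The lowest adjusted p was 0.325, and 853 genes had an unadjusted p under 0.05. The difference was 8.77 ± 2.34 for Hba-a1 (adjusted p = 0.986), 6.37 ± 1.41 for Hbb-bt (0.729) and 4.12 ± 0.80 for Galk1 (0.517). The smallest p belonged to Pacsin3, an adaptor of endocytosis, whose dorsal level stood at 10.38, 10.12 and 9.72 and then at 11.96, 12.30 and 11.59, and whose dorsal change exceeded the lateral one by 2.81 ± 0.45 (adjusted p = 0.325). Muc16, a membrane mucin, differed by 3.34 ± 0.57 (0.403) and Slc25a18, a mitochondrial glutamate carrier, by 3.71 ± 0.66 (0.446). In the other direction the smallest p values belonged to Gnat2 (-1.80 ± 0.45), Klhl40 (-2.33 ± 0.59) and Col8a1 (-2.08 ± 0.53), none of them called.

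One library decided the case of the olfactory P450 genes. Lateral Cyp2g1 stood at 6.24, 6.31 and 6.38 at 4 days and at 7.85, 12.44 and 7.39 at 7 days, where replicate 2 was far above the others. With all arrays the dorsal change exceeded the lateral one by 4.50 ± 0.88 (adjusted p = 0.517, limma). Without replicate 2 of 7 days the difference was 5.95 ± 0.42 and was called (adjusted p = 0.000139), as were those of Cyp2a4 (5.85 ± 0.55, adjusted p = 0.00169), Cyp2a5 (5.12 ± 0.52, adjusted p = 0.00276), Npr3, a receptor that clears natriuretic peptides (3.73 ± 0.46, adjusted p = 0.0164), and a probe without a gene symbol. Cyp2a4, Npr3 and that probe are named after their values were seen. Over the microglial list the lateral median was higher than the dorsal one (3.30 against 2.39), over mitosis it was lower (-2.21 against -0.92), and over the meningeal list the medians were 3.26 and 3.38. Differences between list medians were not tested.

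In the context of the other time points, the dorsal 4-day samples were low for most called genes. The 4-day mean was the lowest of the measured times in 9 of the 12 called genes (75%), against 2938 of 21802 genes tested (13.5%), and the 7-day mean was the highest in 6 of 12 (50%), against 12.6%. The call itself favours a low 4-day mean, so these shares are a description. Dorsal Hba-a1 averaged 19.02, 16.15 and 16.03 at 8 hours, 1 day and 2 days, then 8.22 at 4 days, and 16.84 at 7 days. Its 14-day spots were marked as outliers and gave no level. Capg averaged 13.74, 13.86 and 13.48 at these early times, then 6.51 at 4 days, 11.54 at 7 days and 7.37 at 14 days. Galk1 averaged 14.36, 14.12 and 14.30 at the early times, 10.29 at 4 days, 14.06 at 7 days and 13.68 at 14 days. For Hba-a1, Capg and Galk1 the dorsal level at 7 days was thus nearer to the early times than to 4 days.

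Of the other called genes, some were highest at 7 days and some were not. Igf2 averaged 8.54, 7.36 and 8.65 at the early times, 6.25 at 4 days, 13.38 at 7 days and 6.59 at 14 days. Fmod averaged between 6.54 and 7.29 at each other time and 10.87 at 7 days. Frzb went on to 15.38 at 14 days, from 6.17 at 4 days and 11.36 at 7 days. Over the 12 called genes the mean of the 3 early times exceeded the 4-day mean by a median of 2.18, against -0.10 over all genes tested. The arrays of 1 day and of 14 days lay on slides of their own, so time and slide cannot be told apart for them.

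**Figure D4:**
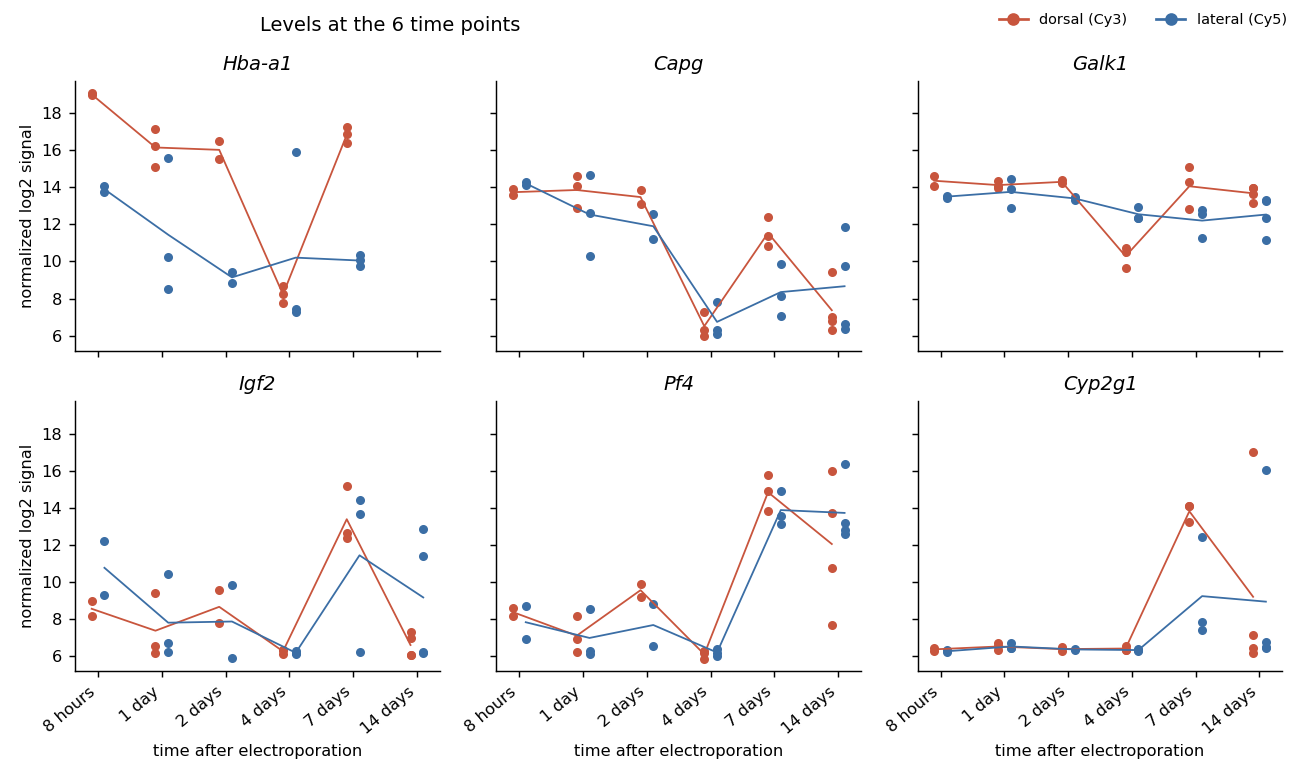
Normalized log2 signal (vertical axis) at the 6 time points (horizontal axis) of Hba-a1, Capg, Galk1, Igf2, Pf4 and Cyp2g1, with dorsal arrays in orange and lateral arrays in blue, points for arrays and lines for means. In dorsal Hba-a1, Capg and Galk1 the 4-day points lie below those of 2 days and of 7 days, whereas Igf2, Pf4 and Cyp2g1 are high at 7 days.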

How the data were processed

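The arrays were Agilent arrays of 2 colours, each with 1 dorsal (Cy3) and 1 lateral (Cy5) sample. Per the file headers, the authors obtained spot intensity with Feature Extraction, version 10.5.1.1 on 3 slides and version 10.7.3.1 on the other two. The mean signals and median local backgrounds were used here, and the processed signal intensities as an alternative. The deposited log10 ratio (red divided by green) was set against the deposited value table. The authors deposited in that table log2 values of dorsal over lateral, read as such from a correlation of -0.903 to -0.972 with the scanner's ratio across probes, and their normalization is not stated in the sources.

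Controls aside, 43379 spots represented 41174 probes. Names came from a GRCm38.p6 RefSeq table, through 26876 accessions and 3241 symbols, and 11057 probes kept the file's name. Background was corrected with normexp (offset 50), ratios by loess (control weight 0), and the average intensities of arrays by the Aquantile method. Spots marked as outliers (0.348 to 0.537% on the 6 arrays) were set to missing. Probes well above background in Cy3 on at least 2 of 6 arrays were kept (30244), and the probe with the highest mean level represented a gene. Where no 4-day array was above background, the fold is a lower bound: the mean at 7 days against, per 4-day array, the higher of the probe's own signal and the lowest signal among probes above background. Such bounds are open to dye bias.

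All 17 arrays entered 1 limma fit with a mean per time (limma 3.58.1 under R 4.3.3, 11 residual degrees of freedom). Tests were two-sided, with Benjamini-Hochberg adjustment over 21802 genes and a threshold of 0.05, and the fits were tested on simulated data. The spread is thus shared with times and slides outside the comparison. The difference from the lateral change was tested on the log2 ratio of Cy3 over Cy5 in the same way. P-values measure the spread between samples labelled as biological replicates, and the number of arrays limits the precision.

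The genes named are those called with the same sign on all 3 slides, up to 4 members of a list by p, and the 3 with the smallest p in each direction of the dorsal-lateral difference. The comparison and the 40 gene lists (658 genes, 617 tested) were chosen with earlier results of these data known. Alternatives covered the samples fitted, slide and replicate blocks, normalization, background offset, filters, probes of a gene, array weights, the variance prior and single arrays. Promoter letters were read from RefSeq tables of GRCm38.p6, and plots were made in Python 3.11.15 (matplotlib 3.10.9).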

Additional observations from a re-analysis of the deposited data

How the results depend on the processing

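The 12 calls of the dorsal change, 7 days minus 4 days, became 83 with the 6 arrays of 4 and 7 days alone (82 higher, 1 lower), 0 with the slide as a fixed block among them, 3 with the slide as a random block (consensus correlation -0.221), 93 with array weights (84 higher, 9 lower), 6 with median scaling of the dorsal channel, 22 with an intensity trend (21 higher, 1 lower), 39 without replicate 1 of 1 day and replicate 2 of 14 days, which stand apart, and 3 to 25 when 1 array of 4 or 7 days was left out. The 3 calls of the random block were Hba-a1, Hbb-bt and Igf2. Of 2 alternatives chosen after seeing the data, the slide as a block in the fit of 17 arrays gave 5 and keeping spots marked as outliers gave 5. The other 8 settings gave 9 to 15. Lower calls outside the rule for names, seen after their values, were Asxl3 (intensity trend), Helt (without both arrays that stand apart), Mief2 (without replicate 2 of 4 days), Tfr2, Cep128 and an unnamed transcript (without replicate 3 of 4 days) and Cst12 (without replicate 1 of 7 days). Of 3 list members called in the first place, the count was 8 with 6 arrays, 9 with array weights, 6 without both arrays that stand apart, 1 with marked spots kept and 0 with either block of the 6 arrays. Leaving out single arrays kept it at 3 or 4. Over 288 pairs of a called gene and an alternative, 163 kept the call, 125 lost it and 0 changed sign. Hba-a1 was called in 21 of 24 alternatives, Igf2 in 22 and Hbb-bt in 20. The cause of these changes was not tested. The median change of all genes moved from -0.088 to -0.383 with median scaling of Cy3 and to -0.316 with the processed signal, so changes are relative to such shifts.

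Replicate numbers equal slides here. Deviations from the group means correlated at 0.0269, 0.038 and 0.238 for same-numbered pairs and at -0.136 to 0.078 for other pairs, so the numbers are not treated as pairing. The replicate block among the 6 arrays is therefore the same fit as the slide block, with 0 genes called and a lowest adjusted p of 0.17 (limma). It adds no further check, although both are counted among the alternatives. The 0 calls of the dorsal change minus the lateral change stayed at 0 with 6 arrays, both blocks, median centring, no filter, array weights and the deposited value table (lowest adjusted p 0.0726 to 0.84), and were 0 to 5 when 1 array was left out: 1 without replicate 3 of 4 days, 1 without replicate 1, 5 without replicate 2 and 1 without replicate 3 of 7 days. Dim genes limit the comparison: 6 of the 12 called genes were above background on no 4-day array.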

Other observations

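The lists of axon guidance, transmitter receptor and signalling pathway genes differed little as groups between the dorsal samples of 4 and 7 days. None of their members was called, and the called genes Frzb and Sulf2 belong to none of these lists. The median change was -0.078 (0.15 without replicate 1 of 4 days) over 30 guidance and adhesion genes, of which 15 were higher and 15 lower. Sema3f, a repellent guidance cue, stood at 6.57, 7.18 and 7.55 and then at 9.57, 9.67 and 9.82 (2.59 ± 0.74, adjusted p = 0.419, limma), while its lateral change was -0.04 ± 0.80. Of the 30, 3 were wholly higher and 2 wholly lower, against 6.46% and 8.32% of all genes, so these counts are a description. The 2 lower ones were Dcc and Robo1. Dcc, the netrin receptor, stood at 13.08, 12.69 and 12.13 and then at 11.08, 10.81 and 10.97 (-1.68 ± 0.71). Robo1, a Slit receptor, stood at 11.77, 9.51 and 9.33 and then at 7.96, 8.76 and 8.00 (-1.96 ± 0.86). Among 26 subunits of glutamate and GABA receptors, 13 were higher and 13 lower. The NMDA receptor subunit Grin2b stood at 8.38, 7.19 and 8.21 and then at 10.25, 11.42 and 9.67 (2.52 ± 0.71, adjusted p = 0.402, limma), and the GABA-A receptor subunit Gabrg1 at 6.97, 7.08 and 8.26 and then at 9.08, 10.90 and 8.93 (2.21 ± 0.65, adjusted p = 0.458, limma). Neither overlapped between the groups.

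The medians of the Notch (19 genes, 0.14), Wnt (25 genes, 0.0081) and BMP and TGF-beta (27 genes, -0.023) lists also lay near that of all genes, and each turned its sign when some single array of 4 or 7 days was left out. Id2, an inhibitor of basic helix-loop-helix factors that BMP signalling induces, stood at 12.55, 8.14 and 10.88 and then at 13.28, 13.81 and 13.80 (3.11 ± 1.09, lateral 3.06 ± 1.40). Lgr5, a receptor for R-spondins, was highest in replicate 1 of 7 days, at 6.75, 7.30 and 6.64 and then at 12.02, 8.67 and 7.24. Dynlrb2, a dynein light chain of motile cilia, stood at 6.40, 6.64 and 6.43, above background on no 4-day array, and then at 11.15, 12.75 and 7.40, at least 15.4-fold higher without a call, with replicate 3 of 7 days the lowest of the later samples. In the list of ependymal and ciliary genes to which it belongs, 12 of 16 were higher, with a median of 0.16 that was -0.13 without replicate 2 of 7 days.

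Further genes called within the 6 arrays alone, described after their values were seen, had wide gaps between the groups. Lcp1, an actin-bundling protein of leukocytes, stood at 7.29, 8.04 and 7.07 and then at 13.52, 13.46 and 13.69 (adjusted p = 0.334 in limma's fit of all arrays, 0.00695 with 6 arrays). Folr2, a folate receptor of tissue macrophages, stood at 7.72, 7.66 and 8.99 and then at 12.23, 13.83 and 13.81 (adjusted p = 0.17, 0.0411 with 6 arrays). Cyp2f2, a cytochrome P450 of airway and nasal epithelium, stood at 6.10, 6.27 and 6.35, above background on no array, and then at 12.44, 10.53 and 11.38, at least 36.2-fold higher (adjusted p = 0.811, 0.0281 with 6 arrays), with a lateral change of 0.89 ± 1.64.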
